A study of Mus musculus with 15 samples.

Results

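GFP2 and GFP3 are the middle bins of a series of 4 in which hematopoietic stem cells (HSCs) of the mouse were sorted by the amount of a histone label left in them. Their comparison uses 6 of the 15 libraries of the study, 3 from each bin, and was made pair by pair on equal replicate number. It covers every gene with a linear value (2 to the power of the deposited log2 value, minus 1) of at least 1 in 3 or more of all 15 libraries. This kept 27994 of 31298 gene symbols, and a gene could enter through other groups alone. All mice of the study were hCD34-tTA x TetO-H2BGFP: a tetracycline transactivator under human CD34 regulatory sequence drives H2BGFP, a histone joined to green fluorescent protein. Doxycycline in the drinking water shuts off this transgene. Both bins, and every other group, were bone marrow cells gated as LSK, CD48-, Flk2- and CD150+, and no group went without doxycycline. Replicate I came from mice aged 5 months after 12 weeks of doxycycline, replicate II from 5.5 months after 14 weeks, and replicate III from 6.5 months after 16 weeks, in GFP2 as in GFP3. The outer bins GFP4 and GFP1 and the undivided HSC sort, Total, had the same ages and times. The label is made only where the CD34 sequence is active, so retention reads division history only in cells that made the label first. The labels do not say which end of the bin numbers holds most label (read here as rising with the number), whether a library is 1 mouse or a pool, or whether equal numbers share mice; p-values here therefore measure only how far these libraries spread.

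Once the transgene is off, each division splits the labelled histones between the daughters, so the label left in a cell falls with the number of its divisions. Most HSCs of adult marrow are quiescent and divide rarely. A cell that enters the cycle passes a G1 control point through cyclin D kinases, CDK4 and CDK6, which release E2F factors from the retinoblastoma family. E2F then turns on the genes of DNA replication in S phase, and a later wave under the MuvB complex with B-MYB and FOXM1 turns on the genes of G2 and mitosis. HSCs are also known for a branch biased to the platelet lineage that carries megakaryocyte transcripts such as Itga2b (CD41) and Vwf.

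Values are log2 expression per gene, quantile normalized by the authors over the 15 libraries, so that each has the same distribution and differences in total RNA between bins are removed. Read depth is unknown, and so no counting error can be given. In bulk samples like these, fewer cells of a type and less RNA per cell cannot be told apart. Among the 10238 genes at 10 ppm or more (ppm, a gene's share of its library's summed linear values, as the mean of the 6 libraries), Pearson's r across genes ran from 0.938 to 0.981 between libraries. GFP2 replicate I stood apart by its low end: 9327 symbols sat at its lowest value, against 4038 to 7675 in the other 5 libraries. The gate genes were present in all 6 libraries. Kit was at 15.94, 15.98 and 15.57 in GFP3 and 15.86, 15.82 and 15.60 in GFP2 (replicates I, II and III, as in every such list here), and Slamf1, which encodes CD150, at 11.17, 11.17 and 11.28 in GFP3 and 11.29, 11.05 and 11.18 in GFP2. Cd48 and Flt3 transcripts, whose proteins the gate excludes, were nevertheless detected, Cd48 at 7.34, 8.37 and 8.55 in GFP3 and 7.72, 9.42 and 8.01 in GFP2 and Flt3 at 9.90, 9.96 and 10.09 in GFP3 and 9.84, 10.30 and 9.93 in GFP2.

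Between the middle bins, 3 genes rose from GFP3 to GFP2 (0.0107% of the genes tested) and 2 fell (0.00714%). The platelet glycoprotein gene Gp5, the G1 kinase gene Cdk6 and the tubulin gene Tuba8 rose, and the sulfotransferase gene Sult1a1 and the immunoglobulin segment Igkv9-120 fell. The test was limma on all 15 libraries with replicate number as a block, with Benjamini-Hochberg adjusted p at 0.05 over all genes tested. All 5 depended on the block: without it, 0 genes passed in either direction (821 higher and 748 lower at an unadjusted p under 0.05, against 949 and 924 with it). Quantile normalization repeated without immunoglobulin genes left 3 higher and 1 lower, but there Igkv9-120 was not among the 27688 genes tested. The calls depended on single libraries too, since 0 genes passed when GFP2 replicate I, GFP3 replicate II or GFP3 replicate III was left out. Without GFP2 replicate II the counts were 4 higher and 0 lower, without GFP2 replicate III 1 and 11, and without GFP3 replicate I 6 and 2. Leaving out a replicate number from every group gave 1 higher and 0 lower for I, 1 and 1 for II, and 2 and 38 for III. A fit of the 6 libraries alone, again with the block, called 122 genes higher (0.436%) and 58 lower (0.207%), including 4 of the 5. Without the block, the same 6 libraries gave 0 genes in either direction. This smaller fit with the block rests on the 3 pairs alone and has fewer residual degrees of freedom than that of all 15 libraries. Its adjusted p is given beside the one of all 15 libraries for some uncalled genes below. It was under the threshold for Mcm5, Cdc20 and Procr, for example, but not for Mki67 (adjusted p = 0.0548), Ccnb1 (0.397), Cdkn1c (0.105), Cdkn2c (0.111), Mecom (0.0861), Fgd5 (0.18), Ezh2 (0.14) or Ezh1 (0.261).

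Gp5 encodes glycoprotein V of the platelet receptor for von Willebrand factor and lies at chr16:30307685-30310779, minus strand (GRCm38, as are all positions given). Its log2 level was 9.53, 8.96 and 9.40 in GFP3 and 10.57, 10.02 and 10.30 in GFP2. Every GFP2 library was above every GFP3 library, and within each bin replicate II was the lowest. The log2 rise was 1.002 (SE 0.14, adjusted p = 0.011), or 2.0-fold, and was similar in the pairs at 1.04, 1.06 and 0.90. Cdk6 (chr5:3341485-3531008, plus strand), the kinase that pairs with D cyclins at exit from quiescence, was at 12.43, 12.23 and 12.23 in GFP3 and 13.03, 12.72 and 12.97 in GFP2. It rose by 0.61 (SE 0.0855, adjusted p = 0.011), or 1.53-fold. Tuba8 (chr6:121210696-121226854, plus strand), an alpha-tubulin found in platelets, was at 9.72, 9.05 and 9.12 in GFP3 and 10.73, 10.15 and 10.49 in GFP2. With a rise of 1.17 (SE 0.17, adjusted p = 0.0217) it had the largest difference of the called genes that rose.

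Sult1a1, a phenol sulfotransferase and a member of published HSC signatures (chr7:126672865-126676432, minus strand), went the other way. It was at 12.67, 12.92 and 12.99 in GFP3 and 12.06, 12.25 and 12.27 in GFP2, with no overlap between the bins. In GFP2 it fell by 0.67 (log2; SE 0.10, adjusted p = 0.0253), and the pairs differed by -0.61, -0.67 and -0.72. The kappa variable segment Igkv9-120 (chr6:68049983-68050456, plus strand) was near the low end of the scale, at 0.416 ppm. It was at 3.84, 5.41 and 4.76 in GFP3 and 0.14, 2.83 and 2.38 in GFP2, so that GFP2 replicate I sat at that library's lowest value. This gene fell by 2.88 (SE 0.38, adjusted p = 0.011), against an adjusted p in the 6-library fit of 0.124. Segments of this family are near copies of one another, and reads may be divided among them. Its level is outside the 10 ppm used for the gene groups.

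**Figure D1:**
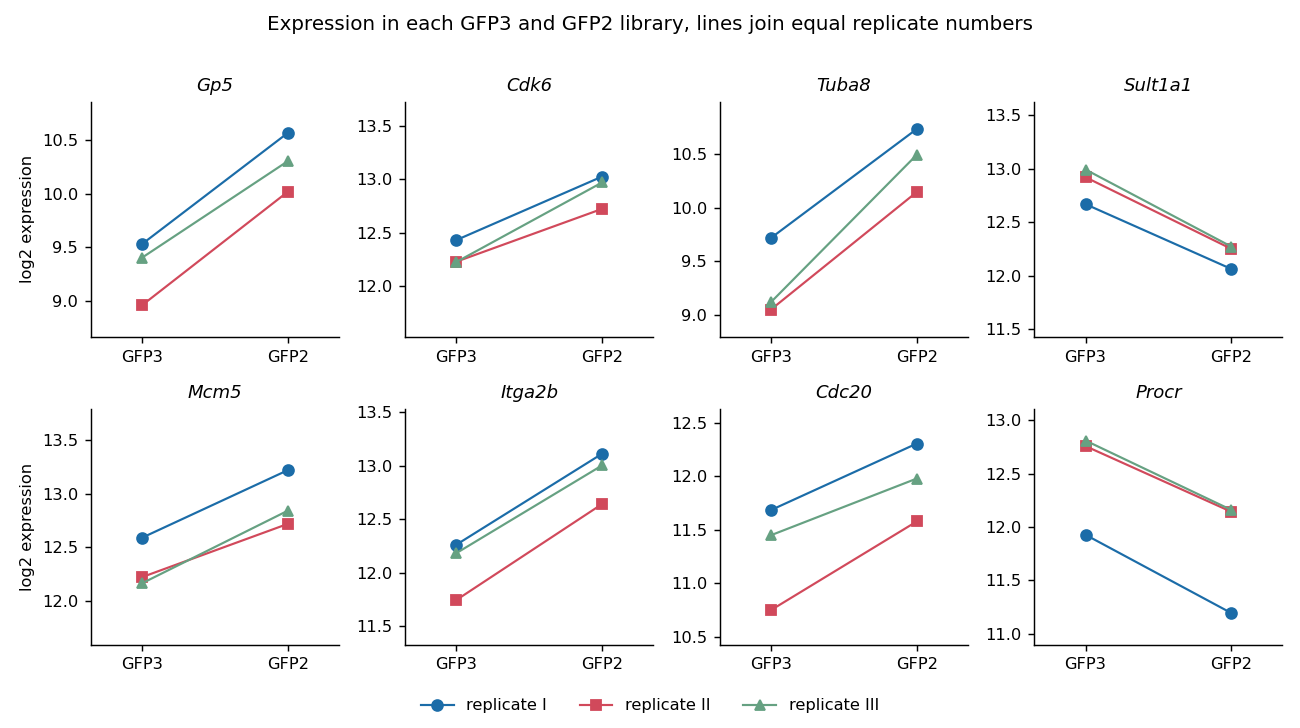
Log2 expression (vertical axis; each panel spans 2.2 units) of 8 genes in the GFP3 and GFP2 libraries, with lines joining equal replicate numbers. The called genes Gp5, Cdk6, Tuba8 and Sult1a1 fill the upper row; Mcm5, Itga2b, Cdc20 and Procr, below, differed in 1 direction in all 3 pairs without passing the test, and the bins overlap for Cdc20 and Procr.

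Differences of single genes were small. Over the 10238 genes at 10 ppm or more the median was 0.008, 95% of them differed by less than 0.428 either way, and 53 differed by 1 or more. Of these genes, 2147 were higher in GFP2 in all 3 pairs (21%) and 1840 lower in all 3 (18%). At an unadjusted p under 0.05, 634 were higher (6.19%) and 471 lower (4.6%), and 875 had every GFP2 library above every GFP3 library (8.55%) against 681 with the reverse (6.65%). These shares are the background for the gene lists that follow, whose members are counted at 10 ppm or more. Adjusted calls of the fit of all 15 libraries between GFP2 and GFP3 are counted over all tested members. Within a list, those of the 6-library fit and of the tests between steps are counted at 10 ppm or more. Among all 10238 genes at that level, the 6-library fit called 119 higher and 56 lower.

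Genes of DNA replication and mitosis were higher in GFP2 across nearly whole lists, though none passed the adjusted test singly. Of 60 S phase genes, 58 were higher in GFP2 in all 3 pairs and none was lower in all 3, with a median of 0.42 (0.36, 0.45 and 0.45 in pairs I, II and III). With no member past the adjusted threshold, 54 of the 60 were higher at an unadjusted p under 0.05, and 23 passed in the 6-library fit. In 34 of them all GFP2 libraries lay above all GFP3 libraries. Member differences ran from 0.075, for Casp8ap2, to 0.97, for Gins1.

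The replicative helicase loads at origins as a ring of Mcm2 to Mcm7, and all its subunits were higher in GFP2 in each pair. Mcm5 was at 12.59, 12.22 and 12.16 in GFP3 and 13.22, 12.72 and 12.84 in GFP2, replicate I being the highest in both bins. The difference was 0.60 (SE 0.11, adjusted p = 0.0774 and, in the 6-library fit, adjusted p = 0.00232). Mcm2 differed by 0.48 (adjusted p = 0.0852) and Mcm7 by 0.41 (adjusted p = 0.0852). Gins1, a subunit of the GINS complex that activates the helicase, was at 8.12, 7.72 and 8.26 in GFP3 and 9.51, 8.62 and 8.89 in GFP2, a difference of 0.97 (SE 0.19, adjusted p = 0.1). Lig1, the ligase that seals Okazaki fragments, was at 11.41, 10.99 and 10.98 in GFP3 and 11.82, 11.62 and 11.76 in GFP2 (0.61, SE 0.11, adjusted p = 0.078). Uhrf1 encodes the protein that brings DNA methyltransferase 1 to newly replicated DNA. It was at 11.91, 11.56 and 11.62 in GFP3 and 12.52, 12.13 and 12.38 in GFP2 (0.64, SE 0.11, adjusted p = 0.0774), again without overlap. The sliding clamp Pcna differed less, by 0.32 (adjusted p = 0.402), and the bins overlapped.

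Genes of G2 and mitosis were also higher in GFP2. Of 83 members, 77 were higher in all 3 pairs and 1, the securin gene Pttg1, was lower in all 3; the median was 0.53. The pair medians were 0.35, 0.70 and 0.50, below that of S phase genes in pair I and above it in pairs II and III. None passed the adjusted test, 57 were higher at an unadjusted p under 0.05 and 42 passed in the 6-library fit. Only 13 of the 83 had bins that did not overlap, and levels also differed between replicate numbers.

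Cdc20, which activates the anaphase-promoting complex, shows this: it was at 11.69, 10.75 and 11.45 in GFP3 and 12.31, 11.58 and 11.98 in GFP2. Replicate I was highest and replicate II lowest in both bins, and GFP2 replicate II lay below GFP3 replicate I. The difference was 0.66 (SE 0.16), with an adjusted p of 0.264, or 0.00483 in the 6 libraries. Cdk1, the mitotic kinase, followed the same order at 11.73, 10.86 and 11.48 in GFP3 and 12.28, 11.70 and 12.07 in GFP2 (0.66, adjusted p = 0.324). Cdca8, a subunit of the chromosomal passenger complex with Aurkb, was at 11.18, 10.52 and 10.92 in GFP3 and 11.83, 11.31 and 11.58 in GFP2, where the bins did not overlap (0.70, SE 0.15, adjusted p = 0.143). Lmnb1, for lamin B1 of the nuclear envelope, had the smallest p of the list, with 11.96, 11.43 and 11.70 in GFP3 and 12.42, 12.06 and 12.31 in GFP2 (0.57, SE 0.10, adjusted p = 0.0774). Mki67, the gene of the proliferation antigen Ki-67, was at 13.44, 12.44 and 12.71 in GFP3 and 13.65, 13.03 and 13.46 in GFP2, so that GFP3 replicate I exceeded GFP2 replicate II. Its difference was 0.52 (SE 0.24, adjusted p = 0.761), and that of Ccnb1, cyclin B1, was 0.47 (SE 0.21, adjusted p = 0.75) with 0.063 in pair III.

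**Figure D2:**
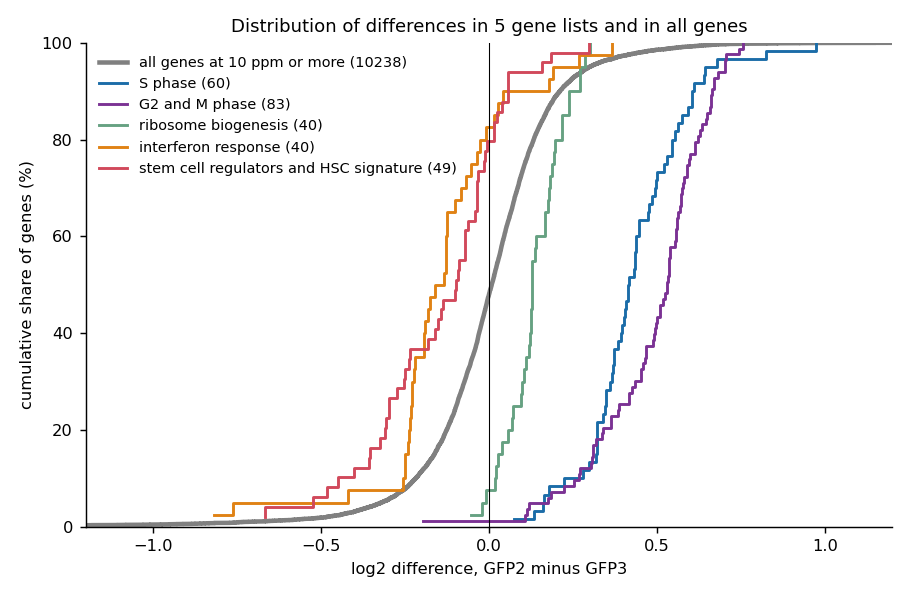
Cumulative share of genes (vertical axis, %) against the log2 difference between GFP2 and GFP3 (horizontal axis) for all 10238 genes at 10 ppm or more and for 5 lists, with the number of members in brackets. The S phase and G2 and M phase curves lie to the right of all genes over nearly their whole length (medians 0.42 and 0.53 against 0.008), while the HSC signature and interferon curves lie to the left (-0.097 and -0.15).

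Of the 16 G1 cyclins, kinases and E2F genes, 11 were higher in all 3 pairs and 2 lower, with a median of 0.24. Cdk6 was the member that passed the test. E2f1 was at 10.23, 9.85 and 9.93 in GFP3 and 10.84, 10.46 and 10.38 in GFP2 (0.56, SE 0.16, adjusted p = 0.352), and the E2F partner Tfdp1 differed by 0.33 (adjusted p = 0.245). Ccne2, cyclin E2, was at 9.66, 9.01 and 9.49 in GFP3 and 10.24, 9.78 and 9.93 in GFP2 (0.60, adjusted p = 0.352). Skp2, the ubiquitin ligase subunit that targets p27 for destruction, differed by 0.48 (adjusted p = 0.245). The D cyclins did not share that direction. Ccnd2 was at 13.88, 14.06 and 13.996 in GFP3 and 13.65, 13.97 and 13.85 in GFP2, lower in each pair (-0.15, SE 0.0796, adjusted p = 0.791), Ccnd1 differed by -0.12 (adjusted p = 0.986) and Ccnd3 by 0.018 (adjusted p = 0.997).

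Among 22 inhibitors of cyclin kinases and genes of quiescence, 7 were higher and 6 lower in all 3 pairs, with a median of -0.089, and none passed. Cdkn1c, which encodes p57 and is a marker of quiescent HSCs, was at 10.62, 10.96 and 11.28 in GFP3 and 10.16, 10.67 and 10.83 in GFP2. It was lower in each pair, with overlap between the bins (-0.40, SE 0.13, adjusted p = 0.461). Cdkn2c, for p18, was at 9.40, 9.01 and 9.41 in GFP3 and 10.09, 9.44 and 9.93 in GFP2, so it was higher in GFP2 without overlap (0.55, SE 0.18, adjusted p = 0.461). Cdkn1b, for p27, differed by -0.088 (adjusted p = 0.978).

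The promoters of these genes are shown because the 2 waves use different elements: E2F sites for S phase, and a CCAAT box with a cell cycle homology region (CHR) for G2 and mitosis. RefSeq start sites on GRCm38.p6 gave a window of 300 bases around the start for 44 of the 58 S phase genes and 61 of the 77 G2 and M phase genes that were higher in all 3 pairs. That set was chosen after the values were seen, because no member had passed the test. Letters were searched on both strands: TTTGGCGC or TTTCCCGC for E2F, CCAAT for the CCAAT box, and TTTGAA or TTCGAA for the CHR, and matches of different motifs were allowed to overlap. In the whole lists, an E2F match was in 31.2% of the S phase and 7.5% of the G2 and M phase promoters. A CHR match was in 16.7% and 67.2% of them, whatever the direction in GFP2. The chosen genes make up 44 of the 48 S phase and 61 of the 67 G2 and M phase promoters of these lists. The shares of the whole lists therefore cannot tell the chosen genes from the other members. Among the chosen genes an E2F match was found in 31.8% of the S phase promoters and 6.6% of the G2 and M phase promoters, against 3.4% of the 7855 promoters of genes at 10 ppm or more and 1.6% of all 27025 in the table. A CHR match was in 67.2% of the G2 and M phase promoters and 18.2% of the S phase promoters, against 13.7% and 19.5%. CCAAT and a CHR together were in 59.0% of the G2 and M phase promoters and 15.9% of the S phase promoters, against 6.0% and 7.7%. These are counts of letters, not of bound sites. The promoters printed below were picked for holding such letters, so that all of them do is no result. For S phase they are the 3 chosen genes of smallest p with an E2F match. For G2 and M phase they are the 3 of smallest p with both CCAAT and a CHR.

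The S phase promoters shown carry an E2F match on the strand opposite to the gene, and capitals mark it, the CCAAT boxes (ATTGG where on the opposite strand) and, in Mcm7, a CHR: Mcm5 at chr8:75109259-75109558 (plus strand), Mcm7 at chr5:138171834-138172133 (minus strand) and Cdca7, a chromatin protein gene induced by E2F and MYC, at chr2:72475969-72476268 (plus strand).
Mcm5: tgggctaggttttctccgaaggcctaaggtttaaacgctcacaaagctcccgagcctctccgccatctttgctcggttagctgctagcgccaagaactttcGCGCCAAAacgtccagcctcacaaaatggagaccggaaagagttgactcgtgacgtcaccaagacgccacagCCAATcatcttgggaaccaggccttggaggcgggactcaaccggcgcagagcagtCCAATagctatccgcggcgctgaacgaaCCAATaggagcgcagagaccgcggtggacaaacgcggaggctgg
Mcm7: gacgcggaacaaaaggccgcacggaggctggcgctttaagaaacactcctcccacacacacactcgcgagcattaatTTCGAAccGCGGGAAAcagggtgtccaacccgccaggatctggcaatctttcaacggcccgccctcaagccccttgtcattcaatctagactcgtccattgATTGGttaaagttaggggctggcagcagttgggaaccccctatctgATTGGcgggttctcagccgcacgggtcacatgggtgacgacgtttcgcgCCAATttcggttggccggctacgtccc
Cdca7: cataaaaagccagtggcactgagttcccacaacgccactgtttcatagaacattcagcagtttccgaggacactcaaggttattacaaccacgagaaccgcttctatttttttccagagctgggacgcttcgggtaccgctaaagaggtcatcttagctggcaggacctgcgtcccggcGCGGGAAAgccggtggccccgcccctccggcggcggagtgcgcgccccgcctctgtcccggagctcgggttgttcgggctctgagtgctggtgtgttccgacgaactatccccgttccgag

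The E2F letters begin at position -149 from the start in Mcm5, -165 in Mcm7 and -71 in Cdca7. In the G2 and M phase promoters the capitals mark CCAAT boxes and the CHR: Cdca8 at chr4:124936868-124937167 (minus strand), Cdc20 at chr4:118437294-118437593 (minus strand) and Racgap1, a component of the central spindle, at chr15:99651607-99651906 (minus strand).
Cdca8: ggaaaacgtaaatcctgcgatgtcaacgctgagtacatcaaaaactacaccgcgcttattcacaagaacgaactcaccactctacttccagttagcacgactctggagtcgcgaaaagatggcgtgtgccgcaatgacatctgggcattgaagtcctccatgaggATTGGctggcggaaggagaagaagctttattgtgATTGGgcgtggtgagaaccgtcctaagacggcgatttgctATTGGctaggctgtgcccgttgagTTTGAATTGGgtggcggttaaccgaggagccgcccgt
Cdc20: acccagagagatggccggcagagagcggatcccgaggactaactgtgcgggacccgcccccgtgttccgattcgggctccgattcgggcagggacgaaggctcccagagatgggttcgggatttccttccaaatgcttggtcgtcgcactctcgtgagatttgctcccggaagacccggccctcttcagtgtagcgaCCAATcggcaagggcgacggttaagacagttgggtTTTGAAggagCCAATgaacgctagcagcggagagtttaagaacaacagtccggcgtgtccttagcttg
Racgap1: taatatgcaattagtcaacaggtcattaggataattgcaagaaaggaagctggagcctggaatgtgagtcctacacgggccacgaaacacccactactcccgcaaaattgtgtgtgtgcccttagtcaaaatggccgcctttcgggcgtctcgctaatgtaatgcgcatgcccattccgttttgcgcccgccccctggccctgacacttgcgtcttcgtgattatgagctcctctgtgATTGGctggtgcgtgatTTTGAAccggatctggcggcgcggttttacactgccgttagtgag

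The letters TTTGAA begin at position 13 from the start in Cdca8, -18 in Cdc20 and 5 in Racgap1, each with at least 1 CCAAT box before them; in Cdca8 they share letters with the last ATTGG. Cdca7 itself was at 12.68, 12.51 and 12.59 in GFP3 and 13.16, 12.97 and 12.95 in GFP2 (0.44, SE 0.0888, adjusted p = 0.123). Racgap1 was at 11.89, 11.29 and 11.69 in GFP3 and 12.17, 11.88 and 12.08 in GFP2 (0.42, SE 0.11, adjusted p = 0.29). GFP2 was the higher bin in every pair of both genes, while the bins overlapped for Racgap1 alone.

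Some platelet and erythroid genes were higher in GFP2, and others lay near or below 0. Of 27 megakaryocyte and platelet genes, 14 were higher in all 3 pairs and 7 lower, with a median of 0.096; 2 of the 39 members tested rose, Gp5 and Tuba8, and none fell. Itga2b, the integrin chain CD41 that marks the megakaryocyte lineage from its start, was at 12.26, 11.74 and 12.18 in GFP3 and 13.11, 12.64 and 13.002 in GFP2. The bins did not overlap, and the difference was 0.86 (SE 0.16, adjusted p = 0.121 and, in the 6-library fit, adjusted p = 0.000234). Gp1bb, another chain of the glycoprotein V complex, was at 8.30, 7.15 and 8.05 in GFP3 and 9.49, 8.38 and 9.08 in GFP2 (1.15, SE 0.26, adjusted p = 0.184). Pf4, the chemokine of platelet granules, was at 11.44, 11.25 and 11.65 in GFP3 and 12.27, 12.08 and 12.30 in GFP2. Its difference of 0.77 had an SE of 0.35 over all libraries, so that the adjusted p was 0.758, but 0.00123 in the 6 libraries. F2r, the thrombin receptor gene, differed by 0.41 (adjusted p = 0.245). Other platelet genes lay near or below 0. Vwf was at 13.55, 13.43 and 13.61 in GFP3 and 13.50, 13.27 and 13.72 in GFP2 (-0.036, SE 0.20, adjusted p = 0.998), and Selp, P-selectin, differed by -0.007 (adjusted p = 1).

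The 25 early erythroid and megakaryocyte regulators had a median of -0.009, with 8 higher and 4 lower in all 3 pairs and none called. Gata1, the factor that drives both lineages, was at 8.58, 7.41 and 8.03 in GFP3 and 9.86, 8.96 and 9.28 in GFP2. All GFP2 libraries were higher, by 1.36 (SE 0.40, adjusted p = 0.464 and, in the 6-library fit, adjusted p = 0.00456). Mfsd2b, the sphingosine 1-phosphate exporter of platelets and red cells, was at 10.18, 9.34 and 9.39 in GFP3 and 11.21, 10.37 and 10.99 in GFP2 (1.22, SE 0.23, adjusted p = 0.147). Slc22a3, an organic cation transporter, differed by 0.87 (SE 0.16, adjusted p = 0.078) and the erythropoietin receptor gene Epor by 0.46 (adjusted p = 0.663). Gata2 and Tal1, shared by stem cells and these lineages, were near 0 (0.056 and 0.015). Car1, carbonic anhydrase 1, was lower in each pair at 9.77, 10.88 and 11.23 in GFP3 and 9.19, 9.85 and 9.99 in GFP2. Its difference was -0.95 (SE 0.51, adjusted p = 0.84 and, in the 6-library fit, adjusted p = 0.00746). Zfpm1, the GATA1 cofactor FOG1, was at 12.78, 12.42 and 13.33 in GFP3 and 10.75, 10.62 and 13.38 in GFP2: GFP2 replicates I and II were low and replicate III was level with GFP3 (-1.26, adjusted p = 0.688). Late erythroid genes were lower at the median, -0.21 over 11 members, but the pairs gave -0.34, 0.046 and -0.065.

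**Figure D3:**
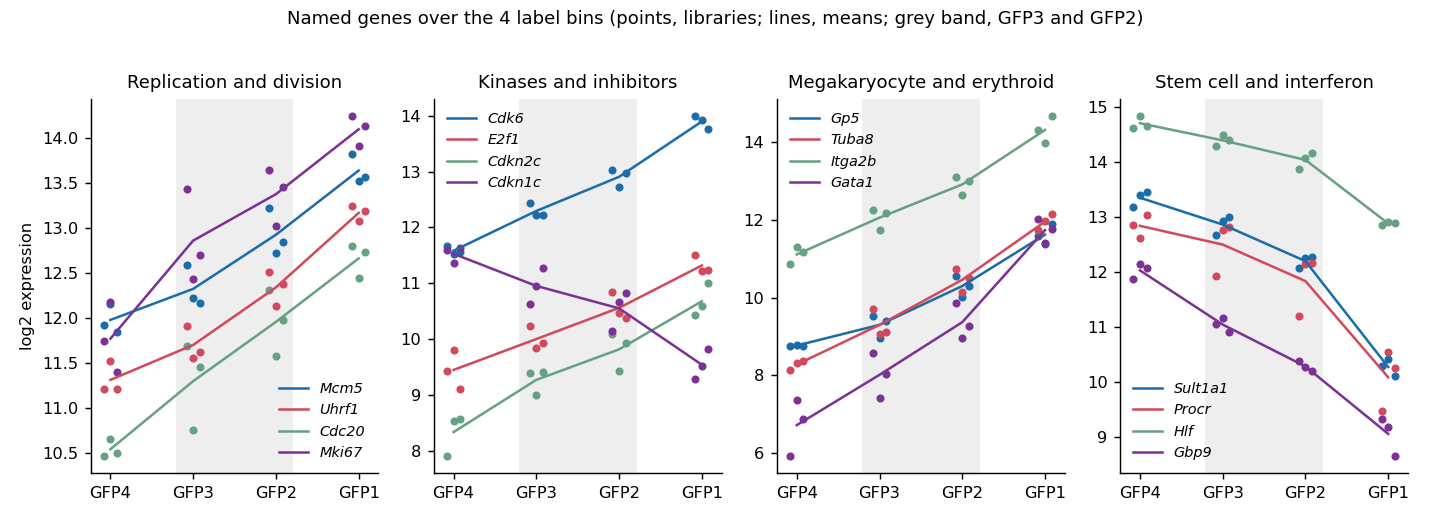
Log2 expression (vertical axis) of 16 genes over the label bins from GFP4 to GFP1 (horizontal axis); points are libraries and lines the means of 3. The grey band holds GFP3 and GFP2. Gp5, for example, runs from a mean of 8.76 in GFP4 to 11.62 in GFP1, and Sult1a1 from 13.35 to 10.27.

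Stem cell genes were lower in GFP2 at the median. Of 49 regulators and signature genes of HSCs, 23 were lower in all 3 pairs and 4 higher, with a median of -0.097 (pairs -0.073, -0.16 and -0.11). At an unadjusted p under 0.05, 17 were lower and none higher, and 1, Sult1a1, fell past the adjusted threshold. Procr, the endothelial protein C receptor used to sort HSCs, was at 11.93, 12.76 and 12.81 in GFP3 and 11.20, 12.14 and 12.16 in GFP2. Replicate I was the lowest in both bins and the bins overlapped, but each pair differed by a like amount, -0.73, -0.61 and -0.65. The SE over all libraries was 0.19 and the adjusted p 0.425, against 0.0016 in the 6 libraries. Hlf, a transcription factor of HSC identity, was at 14.29, 14.48 and 14.41 in GFP3 and 13.88, 14.07 and 14.17 in GFP2, with no overlap (-0.35, SE 0.0859, adjusted p = 0.238). Mecom, which encodes EVI1, was at 13.34, 13.43 and 13.43 in GFP3 and 13.09, 13.13 and 13.20 in GFP2 (-0.25, SE 0.11, adjusted p = 0.671). Mllt3, which sustains HSCs in culture, differed by -0.40 (SE 0.10, adjusted p = 0.245) and Fgd5 by -0.31 (SE 0.11, adjusted p = 0.55). Ly6a, the gate gene for Sca1, was at 13.08, 13.64 and 13.71 in GFP3 and 12.67, 13.12 and 13.06 in GFP2 (-0.52, SE 0.15, adjusted p = 0.425). Cd34, which is low on the most quiescent HSCs and whose human regulatory sequence drives the label, was at 12.64, 12.41 and 12.42 in GFP3 and 12.89, 12.93 and 12.89 in GFP2. Here GFP2 was higher without overlap (0.41, SE 0.0831, adjusted p = 0.12 and, in the 6-library fit, adjusted p = 0.023). Hoxb5, reported as a mark of long-term HSCs, was not separated: its pairs were 0.22, -0.41 and -0.26 (adjusted p = 0.969).

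Genes that are known to increase in HSCs with age had a median of -0.11 over 26 members, with 11 lower and 1 higher in all 3 pairs. Vwf, Selp and Slamf1 in that list were near 0 (Slamf1 -0.036, SE 0.11, adjusted p = 0.996). The 13 lymphoid priming genes, among them Il2rg, Notch1 and Ikzf1, had a median of -0.11, with 7 lower and none higher in all 3 pairs. Granulocyte and monocyte priming genes had a median of -0.12 over 18, with 2 in each direction. Multipotent progenitor genes had a median of 0.038 over 11 members, of which Cdk6 rose. Runx3, a runt factor of blood cells outside these lists and chosen after its values were seen, was at 8.96, 8.71 and 8.86 in GFP3 and 9.97, 9.32 and 9.81 in GFP2 (0.85, SE 0.15, adjusted p = 0.0774).

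Interferon response genes were lower in GFP2 by small amounts. Among 40 members, 26 were lower in all 3 pairs and 4 higher, the median was -0.15, and the pairs gave -0.11, -0.14 and -0.21. In 17 all GFP2 libraries were below all GFP3 libraries; 13 were lower at an unadjusted p under 0.05 and none was called. The guanylate-binding protein gene Gbp9 was at 11.06, 11.15 and 10.91 in GFP3 and 10.37, 10.27 and 10.20 in GFP2 (-0.76, SE 0.14, adjusted p = 0.078). Its relative Gbp6 was at 12.85, 11.82 and 11.90 in GFP3 and 12.09, 10.998 and 11.04 in GFP2, with replicate I far above the others in both bins, and differed by -0.82 (SE 0.38, adjusted p = 0.779 and, in the 6-library fit, adjusted p = 0.000927). The Gbp genes are close copies of one another, and reads may be shared among them. Iigp1, an immunity-related GTPase, differed by -0.42 (adjusted p = 0.252), and Irf1 by -0.25 (adjusted p = 0.551). Isg15 and Irf7, which respond to type I interferon, were near 0 (-0.008 and -0.037), and Oasl1 and Ifit2 were higher in each pair, by 0.37 and 0.27. The 22 genes of antigen presentation had a median of -0.064.

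**Figure D4:**
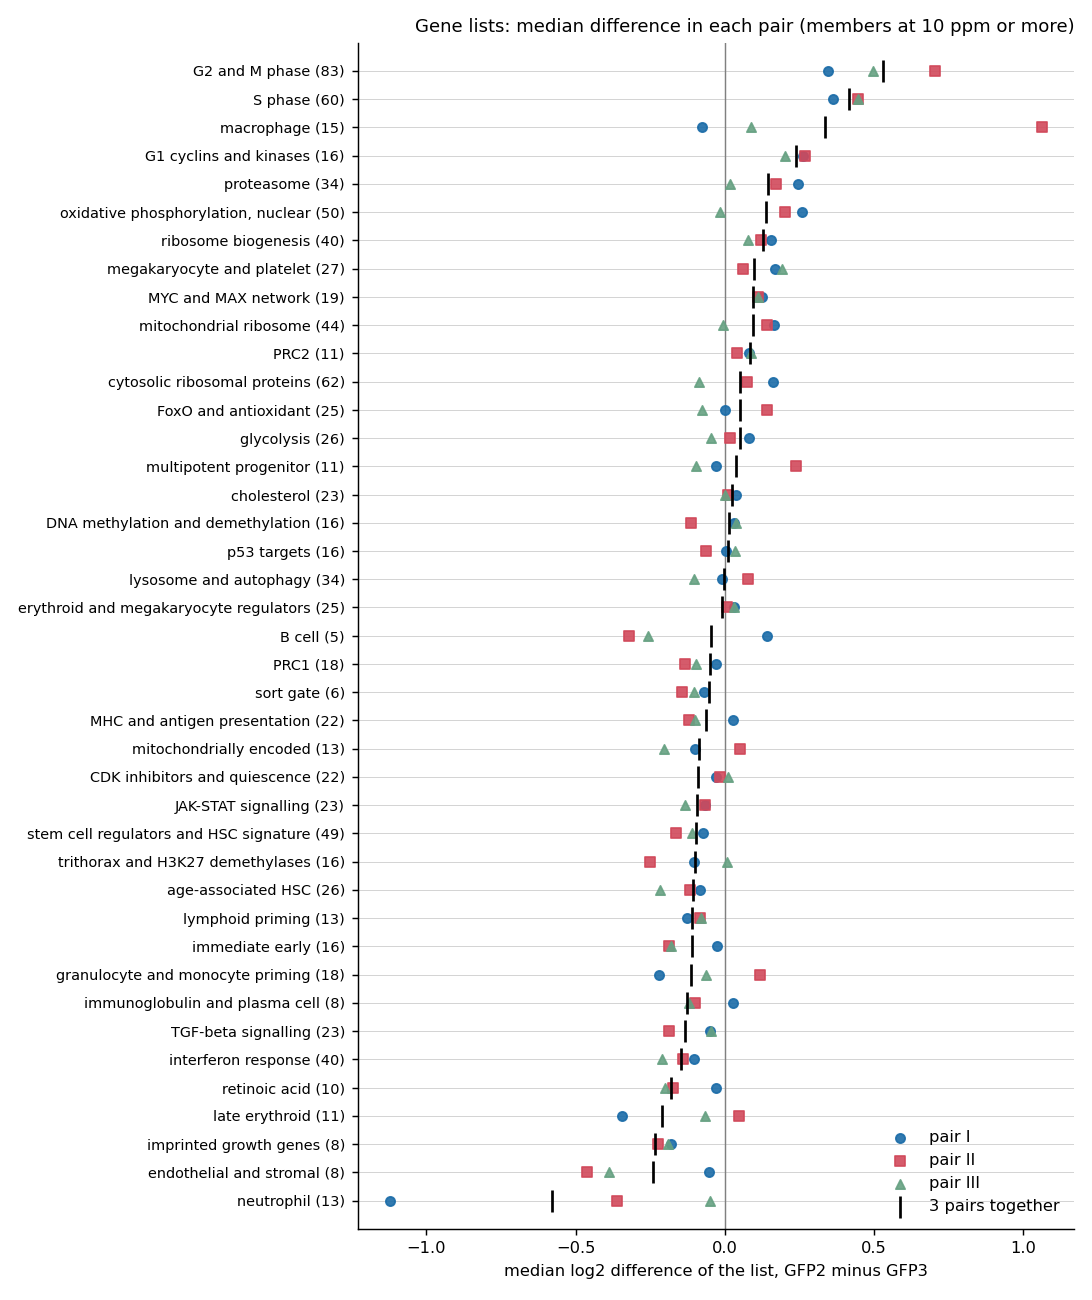
Median log2 difference between GFP2 and GFP3 (horizontal axis) of each gene list with 5 or more members at 10 ppm or more (number in brackets), in each pair (coloured symbols) and over the pairs together (black bar). The S phase medians of the pairs lie between 0.36 and 0.45, whereas the macrophage and neutrophil medians spread from -0.077 to 1.06 and from -1.12 to -0.051.

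Chromatin regulators differed in either direction. Of 11 genes of Polycomb repressive complex 2, which methylates histone H3, 6 were higher and 3 lower in all 3 pairs (median 0.083). Ezh2, its catalytic subunit in dividing cells, was at 11.53, 10.94 and 11.11 in GFP3 and 11.77, 11.39 and 11.42 in GFP2 (0.33, SE 0.12, adjusted p = 0.555). The alternative subunit Ezh1 was at 12.05, 12.06 and 12.05 in GFP3 and 11.88, 11.70 and 11.84 in GFP2, lower in each pair without overlap (-0.25, SE 0.10, adjusted p = 0.653). Of 18 genes of Polycomb repressive complex 1, 7 were lower in all 3 pairs and none higher (median -0.050), among them Cbx7 and Bmi1, with differences of -0.29 and -0.27. Dnmt1, the maintenance DNA methyltransferase, was at 13.18, 12.92 and 12.84 in GFP3 and 13.52, 13.21 and 13.34 in GFP2 (0.38, SE 0.10, adjusted p = 0.245). For the de novo enzymes, Dnmt3a differed by -0.12 (adjusted p = 0.902) and Dnmt3b by 0.12 (adjusted p = 0.933). Mbd2, a reader of methylated DNA, was at 11.26, 11.12 and 11.37 in GFP3 and 8.63, 8.27 and 11.36 in GFP2: GFP2 replicates I and II were low while the third matched GFP3 (-1.83, adjusted p = 0.551). Over the 16 genes of DNA methylation and demethylation 6 were higher and 6 lower in all 3 pairs, with a median of 0.014. The 16 trithorax and demethylase genes had a median of -0.099, with 5 lower and 1 higher in all 3 pairs.

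Lists of ribosome biogenesis, the proteasome and nuclear oxidative phosphorylation were higher in GFP2 by 0.15 or less at the median. Ribosome biogenesis had a median of 0.13, with 23 of 40 genes higher in all 3 pairs and none lower; Nop58, a small nucleolar ribonucleoprotein, differed by 0.29 (adjusted p = 0.46). Proteasome genes had a median of 0.15, with 16 of 34 higher in all 3 pairs. For nuclear genes of oxidative phosphorylation the median was 0.14 and 21 of 50 were higher in all 3 pairs. In pair III these medians were -0.016 for oxidative phosphorylation and 0.018 for the proteasome, against 0.26 and 0.24 in pair I. The mitochondrial ribosome (median 0.093, 19 of 44 higher in all 3 pairs) gave 0.17, 0.14 and -0.005 in the pairs. Cytosolic ribosomal proteins had 0.16, 0.074 and -0.085, while all genes at 10 ppm or more had pair medians of 0.045, 0.007 and -0.012. Myc was at 13.42, 13.30 and 13.36 in GFP3 and 13.53, 13.47 and 13.55 in GFP2, higher in each pair (0.16, SE 0.0783, adjusted p = 0.75). The MYC and MAX network had a median of 0.095 (10 of 19 higher in all 3 pairs, 3 lower) and the 13 mitochondrially encoded genes -0.086. Glycolysis, cholesterol synthesis, and lysosome and autophagy genes had medians of 0.051, 0.024 and -0.002. None of these lists held a called gene.

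Among signalling lists, none with a called gene, those of JAK-STAT signalling (median -0.093 over 23 genes), TGF-beta (-0.14 over 23) and retinoic acid (-0.18 over 10, but 0.013 over all 20 members tested) were lower at the median. In the JAK-STAT list 12 were lower in all 3 pairs and none higher. Socs2, a feedback inhibitor induced by cytokine signalling, was at 9.83, 10.56 and 10.53 in GFP3 and 9.41, 10.18 and 9.89 in GFP2 (-0.48, SE 0.17, adjusted p = 0.521). The retinoic acid hydroxylase gene Cyp26b1 was at 9.44, 10.08 and 10.09 in GFP3 and 8.76, 9.01 and 9.37 in GFP2, without overlap (-0.82, SE 0.16, adjusted p = 0.078). Tgfb1, the ligand most studied in HSC dormancy, was at 11.88, 11.90 and 11.90 in GFP3 and 12.29, 12.12 and 12.23 in GFP2, higher in GFP2 (0.32, SE 0.10, adjusted p = 0.419). Ski, a repressor of TGF-beta signalling, was at 8.81, 9.13 and 11.90 in GFP3 and 8.64, 8.78 and 9.35 in GFP2, and GFP3 replicate III stood far above the rest. The difference was -1.02 (adjusted p = 0.858). Smad4, the shared mediator of the TGF-beta and BMP branches, was at 12.22, 12.26 and 12.36 in GFP3 and 9.21, 10.91 and 12.20 in GFP2, low in GFP2 replicate I and level in replicate III (-1.51, adjusted p = 0.804). Of 8 imprinted growth genes, 5 were lower in all 3 pairs and 1 higher (median -0.23). Stress lists were near 0, with medians of 0.010 for 16 p53 targets and 0.051 for 25 FoxO and antioxidant genes. Igf2bp2, which encodes an RNA-binding protein and belongs to none of the lists, was at 8.63, 9.41 and 9.46 in GFP3 and 8.23, 8.43 and 8.88 in GFP2 (-0.65, SE 0.18, adjusted p = 0.302).

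The immediate early genes Fos and Jun, which respond fast to stimulation and to tissue handling, differed more between replicate numbers than between bins. Fos was at 9.92, 11.43 and 12.19 in GFP3 and 9.87, 11.47 and 12.10 in GFP2, and Jun at 12.15, 13.55 and 13.67 in GFP3 and 11.78, 13.42 and 13.62 in GFP2. Replicate I was low in both bins, and the paired differences were small (Fos -0.031, adjusted p = 1; Jun -0.18, adjusted p = 0.992). Over 16 immediate early genes the median was -0.11, with 9 lower and 2 higher in all 3 pairs.

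Markers of other cells were present in both bins, and none was at the lowest value in all 6 libraries. Summed neutrophil markers held 4000, 5840 and 4150 ppm in GFP3 and 1760, 4470 and 3640 ppm in GFP2; 7 of 13 genes were lower in all 3 pairs. Summed macrophage markers were at 531, 1090 and 792 ppm in GFP3 and 460, 2370 and 824 ppm in GFP2, high in replicate II of both bins. The pair medians of that list were -0.077, 1.06 and 0.086, and its median of 0.34 over the pairs ran from -0.004 to 0.72 when libraries were left out. Immunoglobulin and plasma cell markers summed to 762, 1050 and 631 ppm in GFP3 and 637, 706 and 589 ppm in GFP2. B cell markers ran from 96.5 to 184 ppm, T and NK cell markers from 47.6 to 70.1 ppm and endothelial and stromal markers from 203 to 327 ppm over the 6 libraries, with overlap between the bins. Mast cell, basophil and eosinophil markers ran from 488 to 577 ppm and late erythroid markers from 617 to 887 ppm. Mpo, the peroxidase of granulocyte precursors, was at 13.04, 13.29 and 12.79 in GFP3 and 11.48, 13.61 and 11.76 in GFP2 (adjusted p = 0.938). The part of these cells in the differences above was not tested.

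**Figure D5:**
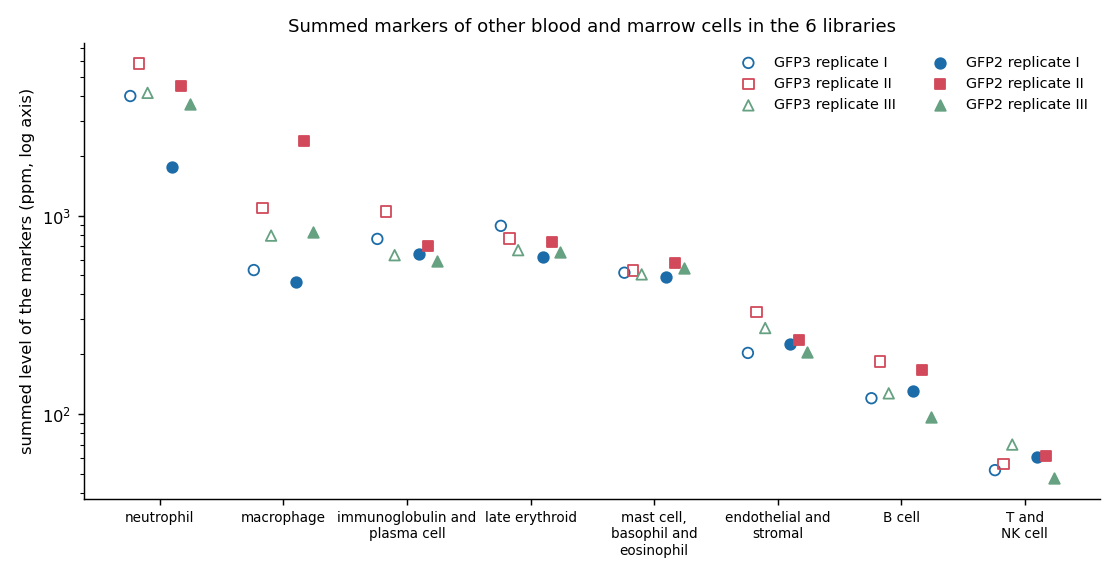
Summed level (ppm of the library's summed linear values, log axis) of marker lists of other blood and marrow cells in the GFP3 (open symbols) and GFP2 (filled symbols) libraries. Neutrophil markers are lowest in GFP2 replicate I at 1760 ppm; macrophage markers peak at 2370 ppm in GFP2 replicate II.

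The neighbouring steps share libraries with the middle one: GFP3 against GFP4 uses the same GFP3 libraries, and GFP1 against GFP2 the same GFP2 libraries, so their values are given side by side only. The first step had 37 genes higher and 11 lower, the last 1035 and 1425. Cdk6 differed by 0.71, 0.61 and 0.99 in the first, middle and last step, Gp5 by 0.53, 1.002 and 1.33, and Tuba8 by 1.02, 1.17 and 1.501. For Sult1a1 the steps were -0.49, -0.67 and -1.93. S phase genes had medians of 0.36, 0.42 and 0.54, G2 and M phase genes 0.83, 0.53 and 0.74, and HSC genes -0.12, -0.097 and -0.56. Platelet genes had 0.16, 0.096 and 0.25, and interferon genes -0.21, -0.15 and -0.53. Tested directly, the middle step differed from the first in 1 gene (0.00357%), Igkv9-120, which was at 0.35, 3.78 and 1.397 in GFP4. The last step exceeded the middle one in 69 genes (0.246%), of which 33 were immunoglobulin genes, and lay below it in 26 (0.0929%), or 68 and 14 after median-of-ratios rescaling. These counts were 36 and 6 without the replicate block, and leaving out 1 library or replicate number gave 26 to 53 higher and 3 to 12 lower. None of the S phase, G2 and M phase or platelet genes was among either set, 5 of the HSC list were, and Sult1a1 was one of them (last minus middle -1.26, SE 0.18, adjusted p = 0.00275). Hlf, another, had a last step of -1.16 against -0.35 in the middle (difference -0.80, SE 0.15, adjusted p = 0.0212). Immunoglobulin transcripts filled 4.92% to 5.28% of the summed linear values in GFP1 and 4.34% to 5.49% in Total, but 0.0117% to 0.06% in GFP3 and 0.00726% to 0.0162% in GFP2. With immunoglobulin genes left out of the normalization and of the test, the last step exceeded the middle one in 32 genes and lay below it in 9. The part of this share in the differences between the last step and the middle step was not tested further.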

How the data were processed

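Gene expression was measured by RNA-seq of sorted mouse HSCs, with 3 libraries in each of GFP2 and GFP3 and 15 in all. Per the labels' protocols, cDNA came from at most 1 ng of RNA with a SMART-Seq kit and libraries from Nextera XT. The submitters' processing notes name kallisto 0.43.0 and GRCm38. Gene values were deposited by the authors as log2 values after quantile normalization. The sources used here do not give the unit before that step, how transcripts were joined into genes, or any offset. The lowest values lie near 0.14, so 1 was taken as the offset in the filter. Another offset would move the fold changes of low genes, and depth is unknown.

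The log2 values were fitted with limma 3.58.1 (R 4.3.3, trend and robust options) over all 15 libraries with group and replicate number (8 residual degrees of freedom), after keeping genes whose linear value reached 1 in 3 libraries. P-values were Benjamini-Hochberg adjusted over 27994 genes at 0.05. Of the symbols, 27 had been turned into dates and were not named. Equal numbers carry 1 age and 1 time on doxycycline in every group. Deviations from the bin means of equal-numbered GFP2 and GFP3 libraries correlated at r = 0.281, 0.471 and 0.0683 (10238 genes), so the third pair shared little. Libraries of unequal number gave r from -0.421 to 0.0467.

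Named by rule are the called genes at 10 ppm or more, a set that each list is known by (with Igf2bp2), and the leading genes of the step contrasts. Igkv9-120, Runx3 and further list members were picked after their values were seen. Some of these, such as Gbp6 and Car1, were among the largest differences called in the 6-library fit. The comparison and its gene lists were chosen with earlier results of these data known. Promoters are RefSeq windows on GRCm38.p6. Alternatives covered the block, the libraries in the fit, normalization, filters, the pseudocount, array weights, and leaving out libraries. Some genes are not reported here.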

Additional observations from a re-analysis of the deposited data

Results flagged for a closer look

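The steps of label loss were compared by a direct test of their difference (limma, adjusted over all genes tested). The last step differed from the middle step in 95 genes and the middle step from the first in 1 gene. Neighbouring steps share libraries, GFP2 in the first case and GFP3 in the second.

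B cell and immunoglobulin related genes were among those whose last step was higher. For Cd79a, a chain of the B cell receptor, the last step exceeded the middle one by 2.83, from a middle step of -0.26 and a last step of 2.57. Ly6d, a marker of early B cell commitment, had a difference between the steps of 3.07 and a middle step of -0.29. Edem1, of endoplasmic reticulum protein disposal, had 1.47 and a middle step of 0.10. Itgal, the leukocyte integrin chain CD11a, had 2.22 with a middle step of 0.12, and Adgrg3, an adhesion receptor gene, 1.398 with 0.11.

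Other genes had a last step below the middle one. Sult1a1 had a difference of -1.26 and Mettl7a1, a methyltransferase-like gene, -1.29 with a middle step of -0.42. Art4 had -0.79 with a middle step of -0.28, Krt18, a keratin gene, -0.87 with -0.033, and the mitochondrial gene mt-Co1 -0.82 with 0.14. After quantile normalization equal ranks take equal values, and mt-Co1, near the top of the scale, was at 17.75 in every GFP2 library. It was at 17.54, 17.54 and 17.75 in GFP3 and 16.94, 17.13 and 17.13 in GFP1, so its spread may be understated. Igkc was at 19.12, the highest value, in every GFP1 library. Igkv9-120 was the gene whose middle step differed from the first, by -5.71, from 2.83 in the first step to -2.88 in the middle step. No cause of these differences was tested.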

How the results depend on the processing

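The number of genes called between GFP2 and GFP3 depended on the model. Without the replicate block, 0 genes were higher and 0 lower, and 0 list members passed (4 with the block). With the 6 libraries alone, the counts were 122 higher, 58 lower and 102 list members with the replicate block, and 0, 0 and 0 without it. Array weights gave 28, 13 and 21. Without the GFP1 and Total libraries 1 gene was higher. A pseudocount of 0.1 left 1 lower, as did quantile normalization without immunoglobulin genes, which keeps Igkv9-120 out of the test by construction. Leaving out 1 library or replicate number gave 0 to 6 higher, 0 to 38 lower and 0 to 6 list members. For the middle against the first step (1 gene), the replicate block left out, the GFP1 and Total libraries left out and a pseudocount of 0.1 each gave 0, as did leaving immunoglobulin genes out of the normalization, where its 1 gene, Igkv9-120, was not tested; array weights gave 3, and leave-outs 0 to 5. For the last against the middle step (95 genes), the fit without the replicate block gave 42, that without Total libraries 173, normalization without immunoglobulin genes (33 of the 95 then not tested) 41, array weights 259, and leave-outs 29 to 65. The 41 were 32 higher and 9 lower, against 69 and 26 in the main fit. The 33 immunoglobulin genes were among the 69. This alternative changed both the normalization and the genes over which p was adjusted. Their parts in the fall from 26 to 9 lower were not tested apart.

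Over 21 alternatives, Tuba8, Gp5, Cdk6 and Sult1a1 kept their direction, with adjusted p from 0.0016 to 0.421, 0.00362 to 0.276, 0.00299 to 0.317 and 0.00123 to 0.424. They lost the call in 9, 8, 9 and 9 of them. The medians of the S phase, G2 and M phase, HSC and interferon lists kept their sign in all 21. Medians of 12 of the 43 lists changed sign under at least 1 alternative, among them macrophage (0.34 to -0.004) and granulocyte and monocyte priming (-0.12 to 0.020). Of the named genes, these reversed. Vwf ran from -0.11 to 0.027 over the leave-outs (0.011 without GFP3 replicate 2), Slamf1 from -0.11 to 0.007, Flt3 from -0.13 to 0.14 and Ly6d from -0.55 to 0.085. Itgal ran from -0.056 to 0.28, with -0.027 under array weights, Adgrg3 from -0.013 to 0.23, and Krt18 from -0.094 to 0.008, with 0.013 under array weights. The cause was not tested where the construction of an alternative does not show it.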
